A study of Rattus norvegicus with 6 samples.

Results

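The Mas-related G protein-coupled receptors examined here were Mrgprd, Mrgpre, Mrgprf and Mrgprx3. They were chosen by gene symbol, and each was found as a protein-coding row, so that 4 of the 43350 gene rows in the expression table are described. RNA sequencing was performed on the ipsilateral lumbar dorsal root ganglia (DRG) at levels 4 to 6 of male Sprague-Dawley rats in a chronic constriction injury (CCI) group (n = 3) and a sham group (n = 3), 11 days after surgery. In the CCI group the left sciatic nerve was loosely ligated, and in the sham group the nerve was exposed without ligation according to the study's methods, while the sample labels list no treatment for these rats. No transgene or test compound was used in either group, and the labels give no age. The labels mention pooling in the library protocol, whereas the methods describe 1 rat per sample, and the latter is assumed here. Each CCI rat kept its uninjured fibres and non-neuronal cells, so a library is a mixture of injured and uninjured cells.

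The Mas-related receptors form a large family of G protein-coupled receptors that is best known from small-diameter sensory neurons, where several members detect itch-inducing or painful ligands. Mrgprd responds to beta-alanine and marks the nonpeptidergic C-fibre neurons that innervate the skin, and the transcription factor Runx1 is required for the expression of Mrgprd and other family members in those neurons. Rat Mrgprx3, listed by RefSeq with the older name MrgA, is the adenine receptor, whereas Mrgpre and Mrgprf have no settled ligand and Mrgprf is also expressed in smooth muscle.

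The reference sequence before the annotated start was examined because Runx1 acts on this family. RefSeq promoter windows on the rat build GRCr8, given in the direction of transcription and ending at the base before the start, were available for Mrgprx3 and Mrgpre among the 4 receptors. Both are shown, since no window was available for Mrgprd or Mrgprf. A link between these sequences and the values of the groups was not tested. Capitals mark the letters TGTGGT, the core of the Runx motif, or its reverse complement ACCACA. The Mrgprx3 window is chr1:106883146-106883395 on the minus strand and the Mrgpre window is chr1:208399031-208399280 on the minus strand.
Mrgprx3: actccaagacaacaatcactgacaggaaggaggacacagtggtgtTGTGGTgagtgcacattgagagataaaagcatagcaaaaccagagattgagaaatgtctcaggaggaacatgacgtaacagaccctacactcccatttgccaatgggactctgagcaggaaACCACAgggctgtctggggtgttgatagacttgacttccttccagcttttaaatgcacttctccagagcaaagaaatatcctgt
Mrgpre: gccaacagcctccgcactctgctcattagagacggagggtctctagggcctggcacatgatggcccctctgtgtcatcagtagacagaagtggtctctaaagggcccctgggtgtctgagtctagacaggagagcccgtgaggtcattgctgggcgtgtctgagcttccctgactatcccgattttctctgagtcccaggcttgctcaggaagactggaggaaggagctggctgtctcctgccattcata
The Mrgprx3 window held 2 matches on opposite strands, beginning 205 and 84 bases before the start, and the Mrgpre window held 0. Among all RefSeq windows of 250 bases, 4842 of 33469 (14.5%) held at least 1 match, compared with 5 of 14 windows of the family (35.7%). The 5 were those of Mrgprx3, Mrgprx1, Mrgprx2l, Mrgprb3 and Mas1l. Mrgprx1 is here the RefSeq symbol of MrgC, whose other names include Mrgprx4. By order along the chromosome, its window has the place of the expression row named Mrgprx4, not of the row named Mrgprx1. A match of these letters is a description of the sequence and no binding was measured.

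Counts per library summed to between 75423546 and 87615743, so that 3 counts amounted to 0.0342 to 0.0398 CPM when divided by the library total. All other CPM values, which relate a count to the size of its library, use totals adjusted by edgeR's TMM factors. Of the rows, 26663 averaged 0.5 FPKM or more (fragments scaled to row length and library total) and entered the quasi-likelihood F-test of edgeR. A row was called at the study's limits, an unadjusted p under 0.05 with a log2 fold change whose size reached 0.58. Neuronal injury genes, 11 in number and including Atf3, Npy, Gal and Jun, were all called higher after CCI. Their log2 fold changes had 3.47 as the median. At an adjusted p under 0.05, 3 of the 11 passed in the edgeR test with Benjamini-Hochberg adjustment. The paper already names each of the 11 as upregulated in these libraries. Their calls therefore repeat its result and are not an independent check that the groups separate. The sham 1 library stood apart in skeletal muscle markers, whose summed level was 433 CPM there and between 9.20 and 55.9 CPM in the other 5 libraries. P-values measure the spread between 3 rats per group, and an exact permutation test of 3 against 3 cannot go below p = 0.1. The 4 receptors all passed the filter on low values. Family members can resemble each other in sequence, which may make such counts less certain, but this was not measured for any of the 4. The counting of reads that match several genes, or the wrong strand, was not described.

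Mrgprd lay lower in every CCI rat than in every sham rat, by a small margin that did not reach the limits of the test. Its row (MSTRG.3710) spans 218481767 to 218493036 on the plus strand of chromosome 1 in the coordinates of the deposited table. The CCI libraries 1, 2 and 3 had 3798, 4164 and 3690 counts of Mrgprd, and the sham libraries had 4928, 4538 and 4551. Per length, this corresponded to 7.73, 8.58 and 8.08 FPKM in the CCI group and 9.30, 9.37 and 8.99 FPKM in the sham group. Every CCI rat was therefore below every sham rat, although the highest CCI and the lowest sham level were close. The mean Mrgprd level was 8.13 ± 0.423 FPKM (SD, n = 3) after CCI and 9.22 ± 0.201 FPKM (SD, n = 3) after sham surgery. The fitted log2 fold change of Mrgprd was -0.20 (SE 0.06, 95% interval -0.34 to -0.05), a fold of 0.872. Its unadjusted p was 0.0152 and its adjusted p was 0.323 by the quasi-likelihood F-test of edgeR after Benjamini-Hochberg adjustment, so Mrgprd was not called. An exact permutation test of the Mrgprd CPM values gave p = 0.1, two-sided, the smallest value this design can give. The interval of Mrgprd did not reach the limit of 0.58 in either direction. In bulk ganglia, fewer cells of a type and less RNA per cell cannot be told apart.

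The adenine receptor Mrgprx3 had a fold change of the same size as Mrgprd with a wider error. The row (MSTRG.2418) lies on the minus strand of chromosome 1 between 103298174 and 103323476. The CCI libraries held 1147, 1096 and 1031 counts of Mrgprx3 and the sham libraries 1379, 1164 and 1411. In FPKM, Mrgprx3 stood at 10.02, 9.69 and 9.69 in the CCI group and at 11.2, 10.3 and 12.0 in the sham group. Here too the groups did not overlap, with sham 2 just above CCI 1, and the CCI rats were nearly identical to each other. Group means of Mrgprx3 were 9.80 ± 0.193 FPKM (SD, n = 3) and 11.1 ± 0.827 FPKM (SD, n = 3), respectively. The log2 fold change was -0.20 (SE 0.09, 95% interval -0.41 to 0.01), with an unadjusted p of 0.0561 and an adjusted p of 0.481 by the quasi-likelihood F-test of edgeR after Benjamini-Hochberg adjustment. The exact permutation test gave p = 0.1, two-sided. Without sham 3, its highest library, the log2 fold change of Mrgprx3 was -0.14, and without sham 2, its lowest sham library, it was -0.25.

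Mrgpre, an orphan receptor, overlapped between the groups. Its row (MSTRG.3681) covers 216967940 to 216973880 on the minus strand of chromosome 1. The counts were 3852, 2854 and 2988 in the CCI group and 3077, 3354 and 2702 in the sham group. These correspond to Mrgpre levels of 10.8, 8.08 and 9.003 FPKM after CCI and 7.98, 9.52 and 7.34 FPKM after sham surgery. CCI 1 was the highest library and sham 2 the next, so that the groups overlapped through sham 2, while the remaining CCI libraries lay above the remaining sham libraries. The mean was 9.29 ± 1.38 FPKM (SD, n = 3) in the CCI group and 8.28 ± 1.12 FPKM (SD, n = 3) in the sham group. The log2 fold change of Mrgpre was 0.15 (SE 0.14, 95% interval -0.19 to 0.49) with an unadjusted p of 0.325, and the exact permutation test gave p = 0.4, two-sided. It rested largely on 1 rat, since the log2 fold change of Mrgpre was 0.03 without CCI 1. It was 0.07 without sham 3 and 0.27 without sham 2.

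Mrgprf varied most among the 4 receptors and had no settled direction. Its row (MSTRG.3709) extends from 218466289 to 218476763 on the plus strand of chromosome 1 and ends 5003 bp before the Mrgprd row begins on the same strand. Counts of Mrgprf were 884, 564 and 720 in the CCI libraries and 497, 890 and 716 in the sham libraries. Its level was 3.76, 2.43 and 3.30 FPKM in the CCI group and 1.96, 3.84 and 2.96 FPKM in the sham group. The lowest and the highest library of all 6 were both sham libraries, and the CCI values lay between them. Averages were 3.16 ± 0.676 FPKM (SD, n = 3) and 2.92 ± 0.940 FPKM (SD, n = 3). The log2 fold change was 0.10 (SE 0.28, 95% interval -0.57 to 0.77) with an unadjusted p of 0.737, and the exact permutation test gave p = 0.7, two-sided. Without CCI 1 the log2 fold change of Mrgprf was -0.05, and without sham 1 it was -0.13. A change of the size of the study's limit was therefore not detectable for Mrgprf at this spread, while the intervals of Mrgprd, Mrgprx3 and Mrgpre stayed inside that limit.

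**Figure D1:**
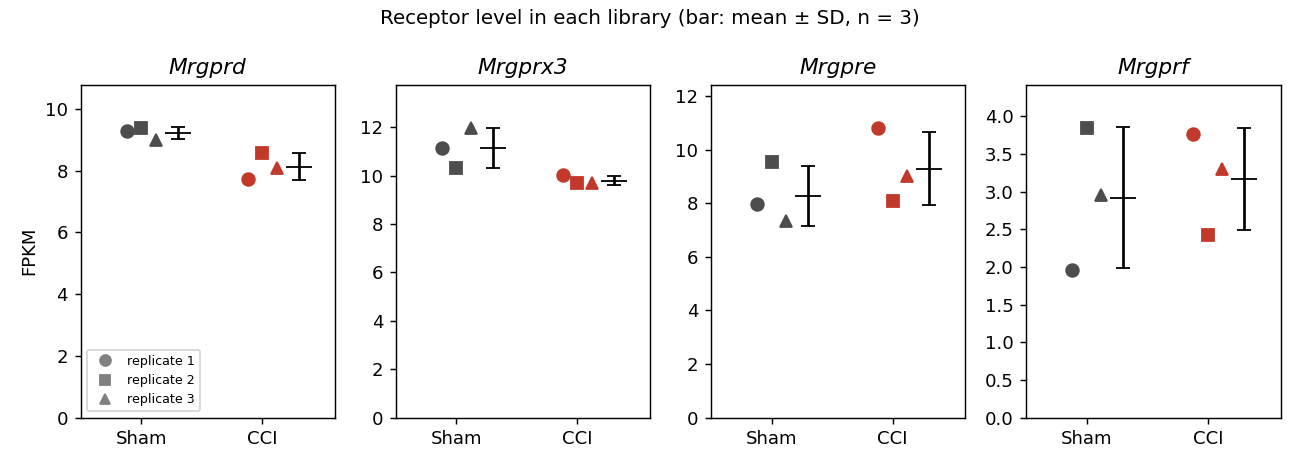
Level of Mrgprd, Mrgprx3, Mrgpre and Mrgprf in FPKM (vertical axes, each from 0) in the 3 sham (grey) and 3 CCI (red) libraries, with 1 symbol per replicate number and a bar for the mean ± SD of each group. The groups separate for Mrgprd (highest CCI value 8.58, lowest sham value 8.99) and for Mrgprx3 (10.02 and 10.3), and overlap for Mrgpre and Mrgprf.

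Set against the whole table, 0 of the 4 receptors were called by the quasi-likelihood F-test of edgeR, where 2.57% of the rows tested were called higher and 1.26% lower, 3.83% in either direction. At an adjusted p under 0.05, with Benjamini-Hochberg adjustment, 0 of the 4 passed compared with 0.0938% of all rows. Mrgprd alone among the 4 had an unadjusted p under 0.05, as did 2866 of the 26663 rows. DESeq2 also called 0 of the 4 and gave Mrgprd an unadjusted p of 0.0177. Every CCI library was below every sham library for 2 of the 4 receptors, and this held for 8.7% of all rows tested. The reverse order held for 0 of the 4 and for 8.63% of all rows. With so few members these shares describe the 4 receptors and do not set them apart. For scale, the median log2 fold change over all rows was 0.01 and its median size was 0.16, so that Mrgprd and Mrgprx3 differed slightly more than a typical row and Mrgpre about as much.

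**Figure D2:**
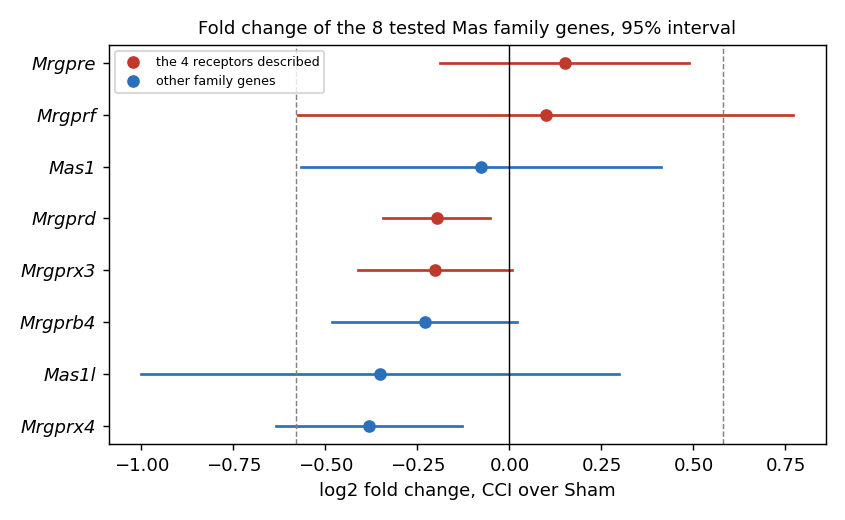
Log2 fold change (CCI over sham, horizontal axis) of the 8 tested Mas family genes with 95% intervals, red for the 4 receptors described and blue for other family genes, with dashed lines at a size of 0.58. The interval of Mrgprd (-0.34 to -0.05) lies below 0 without reaching the dashed line, and the interval of Mrgprf (-0.57 to 0.77) crosses the upper one.

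Per length, Mrgprx3 was the most abundant of the 4 receptors with a mean of 10.5 FPKM over the 6 libraries (range 9.69 to 12.0). Mrgpre followed at 8.79 FPKM (range 7.34 to 10.8), Mrgprd at 8.68 FPKM (range 7.73 to 9.37) and Mrgprf at 3.04 FPKM (range 1.96 to 3.84). These means placed Mrgprx3, Mrgpre and Mrgprd between the 80.3 and 83.5 percentiles of the rows tested, and Mrgprf at the 56.4 percentile. Neighbours in that order were compared within libraries with an exact sign-flip permutation test on log2 FPKM, two-sided, for 3 pairs. Mrgprx3 was above Mrgpre in 5 of 6 libraries (p = 0.09375, adjusted p = 0.141 in the exact test), all but CCI 1. Mrgpre was above Mrgprd in 3 of 6 libraries (p = 0.96875 in the exact test), so that these neighbours did not differ beyond their spread. Mrgprd was above Mrgprf in 6 of 6 libraries, by 1.55 on the log2 scale, with p = 0.03125 in the exact test, the smallest it can give, and an adjusted p of 0.09375. The row lengths behind these values range from 1411 bases for Mrgprx3 to 6050 bases for Mrgprd, which is why Mrgprd had more counts than Mrgprx3 at a lower level per length.

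Ratios between the receptors within a library were compared as well. There were 3.31, 3.80 and 3.58 counts of Mrgprd for each count of Mrgprx3 in the CCI libraries and 3.57, 3.90 and 3.23 in the sham libraries. The mean log2 ratio of Mrgprd to Mrgprx3 differed by 0.00 between the groups. The ratio of Mrgprd to Mrgpre was 0.986, 1.46 and 1.23 in the CCI libraries and 1.602, 1.35 and 1.68 in the sham libraries. It was lowest in CCI 1, and CCI 2 lay inside the sham range. In all 6 pairs of the 4 receptors the groups overlapped, with p-values of 0.2 to 1 in exact permutation tests of the log2 ratios and adjusted p-values of 0.6 to 1 over the 6 pairs. Over the 6 libraries, CCI 1 and sham 2 were the 2 highest in CPM for both Mrgpre and Mrgprf, with CCI 1 first for Mrgpre and sham 2 first for Mrgprf.

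The table held 11 further symbols of the family, all on chromosome 1, of which 4 passed the filter on low values and 7 did not. Mrgprx3 sits at the end of a cluster in which the Mrgprx4 row begins 47898 bp further on and the Mrgprb4 row 37280 bp beyond Mrgprx4, all on the minus strand. Mrgprx4, which RefSeq lists with MrgC among the older names of the receptor for opioid-precursor peptides, had 3655, 3672 and 3095 counts in the CCI group and 5437, 3871 and 4970 in the sham group. The groups did not overlap for Mrgprx4, and sham 2 was close to the CCI values. Its level was 4.23 ± 0.246 FPKM (SD, n = 3) against 5.45 ± 0.700 FPKM (SD, n = 3), with a log2 fold change of -0.38 (SE 0.11) and an adjusted p of 0.279 by the quasi-likelihood F-test of edgeR after Benjamini-Hochberg adjustment. Mrgprx4 thus had the lowest unadjusted p of the family (0.00969) and a fold below the limit, and DESeq2 gave it an adjusted p of 0.0648.

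Mrgprb4, whose mouse counterpart marks C-fibres that respond to stroking, stood at 8.56 ± 0.537 FPKM (SD, n = 3) after CCI and 9.93 ± 1.16 FPKM (SD, n = 3) after sham surgery. The groups overlapped for Mrgprb4, and its log2 fold change was -0.23 (unadjusted p = 0.0659 by the quasi-likelihood F-test of edgeR). Without sham 3 the log2 fold change of Mrgprb4 was -0.13, and without sham 2 it was -0.30 (unadjusted p = 0.0277 by the same edgeR test). Mas1, the receptor for an angiotensin fragment, and its neighbour Mas1l were near the filter, with mean levels of 0.801 and 1.08 FPKM and log2 fold changes of -0.08 and -0.35, and both overlapped. The log2 fold change of Mas1l was -0.17 without CCI 1 and -0.58 without CCI 3, and that of Mas1 was 0.090 without sham 1. Of the 8 tested family genes, 0 were called and 0 passed at an adjusted p under 0.05, while Mrgprd and Mrgprx4 had an unadjusted p under 0.05 by the quasi-likelihood F-test of edgeR. By the fitted change 6 of the 8 lay lower in the CCI group, compared with 13050 of the 26663 rows tested. Their median log2 fold change was -0.20. Every CCI library was below every sham library for 3 of the 8, namely Mrgprd, Mrgprx3 and Mrgprx4, and for 8.7% of all rows tested. The summed level of the family was 198, 183 and 183 CPM in the CCI libraries and 211, 207 and 214 CPM in the sham libraries, without overlap. Since it includes those 3 genes, the sum is not a separate result.

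By the rows used, the other 7 symbols were barely detected. Mrgprb5 had the most counts among them, 56, 49 and 30 in the CCI group and 17, 50 and 40 in the sham group. Mrgprb3 followed with 15 to 26 counts in each library, and Mrgprx2 had 0 to 42. Mrgprb13, Mrgprx2l, Mrgprg and Mrgprx1 had 0 to 8 counts in each library, and no fold is given for them. The row named Mrgprx1 had 0 counts in 5 libraries, where 0 allows up to 0.0398 CPM, and 4 counts in sham 3. RefSeq lists Mrgprx1 both as the current symbol of MrgC and as an older name of Mrgprb2, so the symbol alone did not settle this row. By order along chromosome 1, the row follows Mrgprb3, which is the place of Mrgprb2 among the RefSeq windows. The RefSeq window of MrgC lies between those of Mrgprx3 and Mrgprb4, which is the place of the Mrgprx4 row. Mrgprb4 and Mrgprb5 each had a second assembled row, with 653 and 334 counts over the 6 libraries, which was left out of the values above. The second Mrgprb5 row had more counts than the row used (242) and a mean of 1.64 FPKM, above the filter, but no protein-coding label. Among the 15 symbols, Mrgprx3 held 20.9% to 23.7% of the summed FPKM of a library, Mrgpre 14.5% to 22.5%, Mrgprd 16.1% to 19.6% and Mrgprf 4.02% to 7.84%. Thus Mrgprd did not lead the family per length, and Mrgprb4, with 18.0% to 22.1%, was of the same order.

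**Figure D3:**
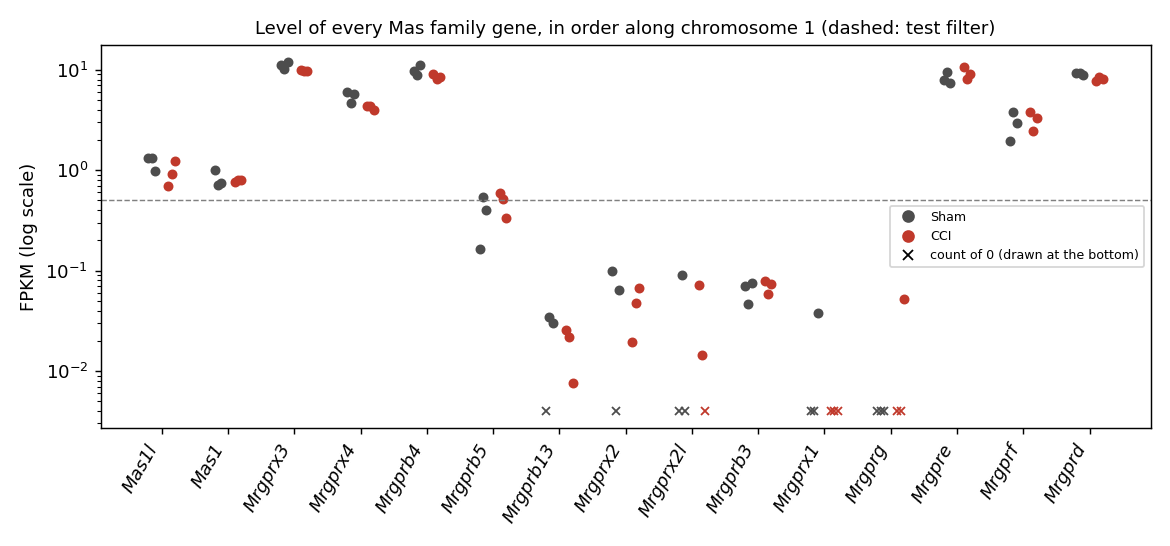
Level in FPKM (log scale) of the 15 Mas family symbols in order along chromosome 1, with 1 point for each sham (grey) and CCI (red) library, crosses for counts of 0 and a dashed line at the filter of 0.5 FPKM. Mrgprx3, Mrgprx4 and Mrgprb4 at one end of the cluster and Mrgpre, Mrgprf and Mrgprd in a second region lie above the filter, and the symbols between them lie under it, except for Mrgprb5, which is above it in CCI 1, CCI 2 and sham 2.

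The genes whose log2 CPM followed each receptor most closely over the 6 libraries were taken from 12012 protein-coding rows, as a description without a test. For Mrgprd these were Ociad1 (Pearson's r = 0.996), Gnai1 (r = 0.993), which encodes an inhibitory G protein alpha subunit, and Nap1l5 (r = 0.992). Gnai1 was at 38.7, 43.7 and 39.9 CPM in the CCI libraries and at 47.6, 49.0 and 48.0 CPM in the sham libraries. That its groups had the order of Mrgprd follows from its choice by correlation over the same libraries and is not a separate result. For Mrgprx3 the closest were Abtb1 (r = 0.987), Mib2 (r = 0.978) and Stc1 (r = 0.978). Mrgpre was followed most closely by Plpp2 (r = 0.993), Pcdhga6 (r = 0.992) and Plk3 (r = 0.989), and Mrgprf by Psmg4 (r = 0.985), Nsmf (r = 0.980) and LOC103690006 (r = 0.977). With 6 libraries, values of r above 0.9 were common, being reached by 378 rows for Mrgprd, 105 for Mrgprx3, 73 for Mrgprf and 67 for Mrgpre, and the libraries share depth and tissue composition.

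Markers of the neurons that carry Mrgprd were compared next. For this and the later lists, the shares over all rows tested were 2.57% called higher and 1.26% called lower. An unadjusted p under 0.05 by the quasi-likelihood F-test of edgeR was reached by 2866 of the 26663 rows. Of 14 markers of nonpeptidergic nociceptors, 0 were called in either direction by the quasi-likelihood F-test of edgeR, 10 had a negative and 4 a positive fold change, and the median was -0.15 (-0.093 without sham 2). At an unadjusted p under 0.05, 4 of them passed: P2rx3 and, named after their values were seen, Scn11a, Grik1 and Cd55, whose log2 fold changes were -0.15, -0.21 and -0.25. P2rx3, the ATP-gated channel of these neurons, was at 90.2 ± 2.97 FPKM (SD, n = 3) in the CCI group and 79.6 ± 1.75 FPKM (SD, n = 3) in the sham group, and every CCI library was above every sham library. Its log2 fold change of 0.16 (unadjusted p = 0.0157, adjusted p = 0.325 by the quasi-likelihood F-test of edgeR after Benjamini-Hochberg adjustment) was thus of the opposite sign to that of Mrgprd. The sodium channel gene Scn10a had a log2 fold change of -0.12 with overlapping groups. The summed level of the 14 markers was 2036 to 2384 CPM after CCI and 2247 to 2493 CPM after sham surgery.

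Expressed as a share of that sum, Mrgprd amounted to 2.30%, 2.43% and 2.03% in the CCI libraries and to 2.50%, 2.30% and 2.44% in the sham libraries. The groups overlapped on this scale, with p = 0.3 in an exact permutation test, two-sided. Scn10a, at a mean of 651 CPM after CCI and 708 CPM after sham surgery, holds a large part of the sum. It had the most counts of its group in CCI 3 (60049) and in sham 2 (67246), the libraries with the lowest Mrgprd share. For Mrgprx3 the corresponding shares were 0.694%, 0.640% and 0.569% against 0.699%, 0.589% and 0.756%, which also overlapped (exact permutation p = 0.4). Relative to 10 pan-neuronal markers the picture differed, since their summed level was 8537 to 9227 CPM in the CCI group and 7160 to 8386 CPM in the sham group. Mrgprd was 0.507%, 0.593% and 0.568% of the pan-neuronal sum after CCI and 0.784%, 0.683% and 0.699% after sham surgery, without overlap (exact permutation p = 0.1). Tubb3, a tubulin that holds a large part of this sum, had a log2 fold change of 0.31 without overlap. The 10 markers did not move together, since 6 had a positive and 4 a negative fold change, with a median of 0.04. Uchl1 was at 0.05 and Snap25, named after its values were seen, at -0.39, both with overlapping groups. For Mrgprx3 the shares of the pan-neuronal sum were 0.153%, 0.156% and 0.159% against 0.219%, 0.175% and 0.217%, again without overlap (exact permutation p = 0.1). Mrgpre and Mrgprf overlapped between the groups on both scales. Relative to the summed peptidergic markers, Mrgprd was 4.28%, 4.71% and 4.501% after CCI and 5.32%, 4.83% and 4.87% after sham surgery, without overlap (exact permutation p = 0.1), while Mrgprx3 overlapped.

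Other neuronal classes that express family members were also examined. Of 10 pruriceptor markers tested, 0 were called and 1 (Lifr) had an unadjusted p under 0.05 by the quasi-likelihood F-test of edgeR, 8 had a positive fold change and the median was 0.20. That median was 0.035 with a filter of 1 FPKM and 0.12 without CCI 3. Lifr, a cytokine receptor subunit, stood at 42.2 ± 4.76 FPKM (SD, n = 3) in the CCI group and 32.2 ± 0.212 FPKM (SD, n = 3) in the sham group, a log2 fold change of 0.37 (adjusted p = 0.218 by the quasi-likelihood F-test of edgeR after Benjamini-Hochberg adjustment). Jak1, a kinase of cytokine signalling, had a log2 fold change of -0.08. Other markers on the list were named after their values were seen. Nppb, Sst and Il31ra had log2 fold changes of 0.39, 0.02 and 0.03 with overlapping groups. Htr1f had the largest, 1.02, without overlap, and was not called. Of 9 peptidergic nociceptor markers, 0 were called, 4 had an unadjusted p under 0.05 by the same test and the median was 0.02, with Calca, the CGRP gene, at -0.15 and Tac1, the substance P gene, at 0.02. Among 7 large neuron markers Pvalb, a calcium-binding protein of proprioceptors, was called lower with a log2 fold change of -0.69, and the median was -0.25. Nefh, a heavy neurofilament gene, had a log2 fold change of -0.55, below the limit, without overlap. Nefm, a medium neurofilament gene, was at -0.29 with overlapping groups.

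Regulators of nociceptor identity, signalling partners and ligands of the receptors were described in the same way. Of 12 transcription regulators and identity receptors, 1 was called, Klf7, which was higher after CCI with a log2 fold change of 0.60, and the median was -0.04. Runx1, named here after its values were seen because of its role in the expression of Mrgprd, was at 5.33 and 5.22 FPKM in the CCI and sham groups with a log2 fold change of 0.02 (unadjusted p = 0.822 by the quasi-likelihood F-test of edgeR). Its partner Cbfb was at 31.8 ± 0.968 and 35.2 ± 0.816 FPKM (SD, n = 3 each), a log2 fold change of -0.16 without overlap. Ret, the receptor tyrosine kinase of these neurons, had a log2 fold change of 0.11 with overlapping groups.

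Of 26 G protein and effector genes tested, 0 were called in either direction, 7 had an unadjusted p under 0.05 by the same test, 15 had a negative fold change and the median was -0.03. Rgs4, which shortens G protein signals, was the most abundant at 246 and 252 FPKM in the CCI and sham groups, and Gnai2 followed with a log2 fold change of 0.12. Gnaq and Gna11, which couple the receptors to phospholipase C and were named after their values were seen, had log2 fold changes of 0.01 and 0.05. Trpa1, an irritant-gated channel downstream of several family members and also a peptidergic marker, was likewise named afterwards, with 28.3 FPKM after CCI, 21.9 FPKM after sham surgery and a log2 fold change of 0.35. Trpv1, on both of these lists too, and Prkce went the other way without overlap, at -0.19 and -0.25, and were also named afterwards. Every CCI library was below every sham library for 5 of the 26 genes and above for 4, compared with 8.7% and 8.63% of all rows tested. Carns1, which makes the beta-alanine dipeptide carnosine, was named after its values were seen. It was the 1 of 11 tested genes of ligand precursors and beta-alanine handling with an unadjusted p under 0.05 by the same test. Of these 11 genes, 0 were called and the median was 0.02. The amino acid transporter Slc36a1 and the dipeptidase Cndp2 were the most abundant of them, with log2 fold changes of -0.20 and 0.04 and overlapping groups. Upb1, the enzyme that forms beta-alanine from its precursor and named after its values were seen, was at 0.0730 and 0.0652 FPKM and was not tested.

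**Figure D4:**
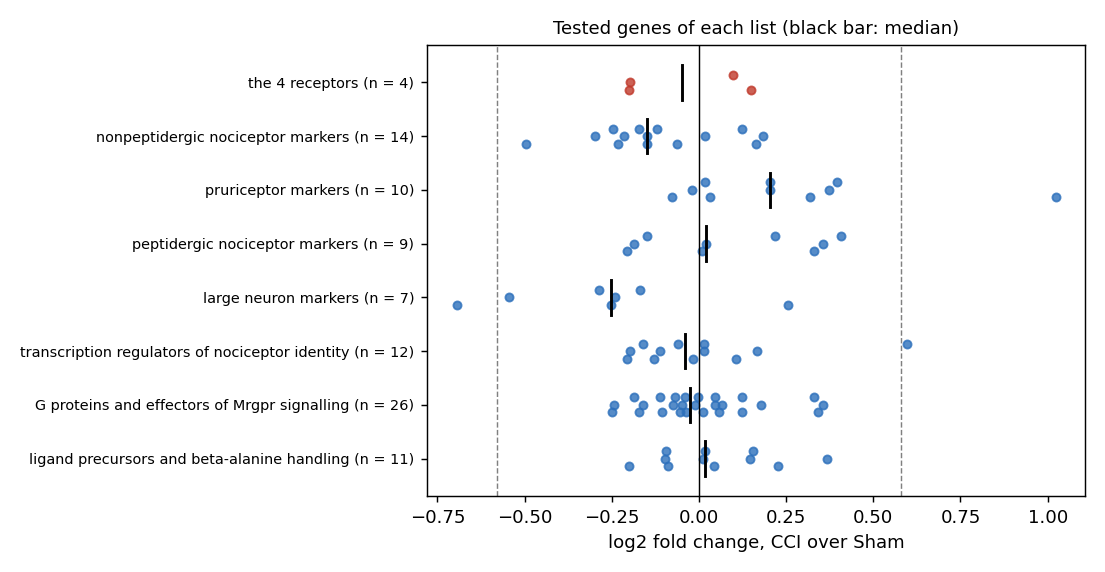
Log2 fold change (CCI over sham, horizontal axis) of each tested gene in 7 lists and of the 4 receptors (red), with a black bar at the median of each list and dashed lines at a size of 0.58. The medians lie between -0.25 for large neuron markers and 0.20 for pruriceptor markers, while Mrgprd and Mrgprx3 both lie at -0.20.

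Markers of other cells in the ganglion were mostly not called, apart from those of macrophages and skeletal muscle, and their part in the receptor values was not tested. Of 12 macrophage markers, 7 were called higher after CCI, compared with 2.57% of all rows tested. The summed level of the 12 was 132 to 196 CPM in the CCI group and 96.2 to 124 CPM in the sham group. Of 8 Schwann cell markers, 1 was called lower, Pmp2, at a log2 fold change of -0.67. Skeletal muscle markers, of which 5 of 9 were called lower against 1.26% of all rows tested, rested on sham 1. Without that library the log2 fold changes of Mrgprd and Mrgprx3 were -0.20 and -0.21. Of 11 smooth muscle and pericyte markers, which bear on Mrgprf, 0 were called, 3 had an unadjusted p under 0.05 by the quasi-likelihood F-test of edgeR and the median was 0.10, with Tagln at a log2 fold change of 0.31 and Rgs5 at 0.25. Their summed level ranged from 371 to 385 CPM after CCI and from 323 to 374 CPM after sham surgery, and Mrgprf relative to that sum overlapped between the groups. Of 9 mast cell markers found, 2 passed the filter and 0 were called, and 0 had an unadjusted p under 0.05 by the quasi-likelihood F-test of edgeR. Kit, a receptor tyrosine kinase that is also on the peptidergic list, was the most abundant of them at 13.98 ± 0.696 FPKM (SD, n = 3) in the CCI group and 11.9 ± 2.98 FPKM (SD, n = 3) in the sham group, and overlapped. The mast cell protease Cpa3 was at 0.548 and 0.518 FPKM. The 7 below the filter had means of 0.0538 to 0.412 FPKM. The highest of these was Hdc, the histamine-forming enzyme, named after its values were seen, with 137, 115 and 119 counts after CCI and 16, 71 and 58 after sham surgery, without overlap. In the lists of fibroblast (7 tested), satellite glia (8), endothelial (6), erythrocyte (5) and adipocyte markers (1), 0 genes were called by the quasi-likelihood F-test of edgeR, and 1, in satellite glia, had an unadjusted p under 0.05.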

How the data were processed

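RNA of the ipsilateral lumbar DRG was sequenced by the authors in 6 libraries after ribosomal RNA depletion. According to the submitters' processing notes, HISAT2 2.0 and StringTie 1.3.0 were used, and the paper calls the genome V101. The deposited counts are whole numbers of reads per gene row without normalization, and the deposited FPKM values were derived from them by the authors per row length and library total. Where no read was counted, the FPKM column carries a small constant. Whether strand was used in counting is not given in the sources used here. Between 5.37% and 5.72% of a library's counts fell on rows without a symbol.

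All 26663 rows averaging 0.5 FPKM or more were fitted with edgeR 4.0.16 in R 4.3.3 (quasi-likelihood test, TMM factors of 0.988 to 1.01, no covariate), and p-values were adjusted over all of them by the Benjamini-Hochberg method. The script was tested on simulated data. The members, the gene lists and the tests were chosen with earlier results of these data known. Genes eligible for naming were family members, called list genes (up to 4 per list, otherwise the 2 most abundant) and the 3 rows most correlated with a receptor. Not every eligible list gene was named, and exceptions are marked. Alternatives were DESeq2 1.42.0, limma 3.58.1 on log2(FPKM + 0.1) and log2(FPKM + 1), other filters and scalings, edgeR's exact test, a prior without trend, protein-coding rows alone, a replicate block and leaving out each library. Promoter windows were taken from RefSeq (GRCr8), and coordinates of rows are those of the deposited table. Sequenced microRNA and the measurements of other studies were not analysed here.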

Additional observations from a re-analysis of the deposited data

How the results depend on the processing

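In all 17 alternatives 0 of the 4 receptors were called. The log2 fold change ranged from -0.24 to -0.16 for Mrgprd (unadjusted p from 0.0124 to 0.161, adjusted p from 0.203 to 1), from -0.25 to -0.14 for Mrgprx3 (unadjusted p from 0.0383 to 0.252) and from 0.03 to 0.27 for Mrgpre. That of Mrgprf was -0.05 without CCI 1 and -0.13 without sham 1, and leaving out 1 library gave -0.13 to 0.35. For Mas1, leaving out 1 library gave -0.17 to 0.090, with 0.090 without sham 1. Protein-coding rows alone gave 353 called higher and 115 lower, and limma on log2(FPKM + 1) gave 410 and 161. The pruriceptor median was 0.035 with a filter of 1 FPKM, 0.15 with limma on log2(FPKM + 1) and 0.12 to 0.22 with 1 library left out. Leaving out 1 library gave medians of -0.085 to 0.056 for the transcription regulators (0.056 without CCI 3), -0.016 to 0.031 for the G proteins and effectors (0.031 without sham 3), 0.046 to 0.26 for smooth muscle markers (0.26 without sham 1) and -4.76 to -1.45 for skeletal muscle markers (-1.45 without sham 1). The same step gave -0.016 to 0.095 for peptidergic markers (negative without sham 1 or sham 3), -0.12 to 0.10 for ligand genes (negative without sham 2) and -0.19 to -0.093 for nonpeptidergic markers. With limma on log2(FPKM + 1) the skeletal muscle median was -1.38 and that of the injury genes 1.84. Same-numbered CCI and sham libraries correlated in their deviations at 0.01, -0.04 and -0.06, so no pairing by number was seen. With 3 libraries per group, deviations from the group mean depend on each other, so these values cannot exclude a pairing of the rats. A replicate block gave Mrgprd -0.20 (unadjusted p = 0.0293) and called 617 rows higher and 318 lower, and it changed no call of the 4 receptors. The cause of these shifts was not tested, and with 3 rats per group the spread of Mrgprf limits what could be detected.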
